A study of Homo sapiens with 6 samples.

Results

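The urokinase plasminogen activation system was followed through 6 genes of MDA-MB-231 cells, taken by name from the deposited gene table. They were the plasminogen activators PLAU and PLAT, the urokinase receptor PLAUR, the serpin inhibitors SERPINE2 and SERPINB2, and annexin A2 (ANXA2). Each of the 6 had a single row among the 20260 genes of the table, and all 6 passed the filter on low counts, which left 13325 genes for testing.

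Urokinase (PLAU) and tissue-type plasminogen activator (PLAT) are secreted serine proteases that cut plasminogen, a circulating zymogen, into plasmin, which digests fibrin and matrix proteins. The receptor PLAUR, held in the membrane by a lipid anchor, binds urokinase at the cell surface, and annexin A2 with its partner S100A10 gives plasminogen and PLAT a docking site there. Serpins trap the activators by forming a covalent complex with them. MDA-MB-231, a human triple-negative breast cancer line with mesenchymal features, is invasive and known to express urokinase and its receptor.

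RNA was sequenced from 3 control samples, in which the cells had received the empty vector, and from 3 samples given a plasmid that overexpresses ABI2, a subunit of the actin-regulating WAVE complex. The series asked what ABI2 does in these cells. All cells were of this 1 line and all had been transfected, and the sources used here do not give the plasmid's promoter, the share of cells transfected or the time of harvest. No label says that replicates came from separate cultures, and p-values then reflect only spread among these samples, possibly technical.

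Between 38.5 and 40.3 times 1e6 counts were assigned to genes per library. ABI2 itself had 81.1 to 83.3 CPM (counts per 1e6 of the scaled library) in the controls and 221 to 225 CPM with the plasmid, so the labels and the targeted gene went together. The summed level of 6 mesenchymal markers of the line was 3429 to 3458 TPM (transcripts per 1e6, a level per transcript length) in the controls and 3869.95 to 4023 TPM with the plasmid. Vimentin (VIM) made up most of it, at 2944 and 3301 TPM on average. Of the 6 markers 3 rose, 1 fell (ZEB1, from 4.43 to 0.74 TPM; edgeR adjusted p = 1.11e-04) and 2 were not called. Over all genes 35.1% rose and 38.0% fell. With correction for transcript GC, described below, 3 rose and 1 fell, against 28.6% and 22.6% of all genes. VIM and ZEB1 were then not called (log2 fold changes -0.08 and -0.67; edgeR adjusted p = 0.129 and 0.0673). With coding-sequence GC, ZEB1 was called lower, at -0.85. For 8 luminal or epithelial markers the sum was 319 to 353 TPM against 514 to 593 TPM, with CDH1 and PGR at 0 counts in every library. Keratin 18 (KRT18), named after its values were seen, made up most of that sum, at 266 and 445 TPM on average. Of the 5 tested markers 4 rose and none fell, and 3 rose and none fell with correction for transcript GC. Their median GC content was 60.3%, and of all genes with 59.2% to 62.6% GC, 72.1% rose. The summed level of 4 markers of leukocytes, endothelium, fibroblasts and hepatocytes was 2.69 to 4.35 TPM over the 6 libraries, with the leukocyte marker PTPRC at 0 counts. The part of these marker differences in the results was not tested. Counts of the ABI2 libraries came from transcripts richer in G and C, with a count-weighted GC content of 53.7% to 54.1% against 50.8% to 51.3% in the controls.

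mRNA of urokinase and of its receptor was about doubled in cells given the ABI2 plasmid, while SERPINB2 and ANXA2 mRNA fell to 0.689 and 0.661 times the control level and PLAT and SERPINE2 mRNA did not pass the test. With correction for the GC content of transcripts, described below, SERPINB2 was higher instead, by 0.90 on the log2 scale, and ANXA2 lost its call under 1 form of the correction (edgeR adjusted p = 0.0778). The rises of PLAU and PLAUR were smaller with correction for transcript GC, at 0.74 and 0.55 on the log2 scale. PLAT was then called lower, at -0.27. These calls came from the edgeR quasi-likelihood test with a Benjamini-Hochberg adjusted p below 0.05 over all genes. Without GC correction, 2 of the 6 genes were higher and 2 lower. In the same test 35.1% of all genes were higher and 38.0% lower, so the count of changed members was close to the background. The median log2 fold change was 0.09 over the 6 genes and -0.01 over all tested genes. In bulk RNA, fewer cells carrying a transcript and less of it per cell cannot be told apart.

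**Figure D1:**
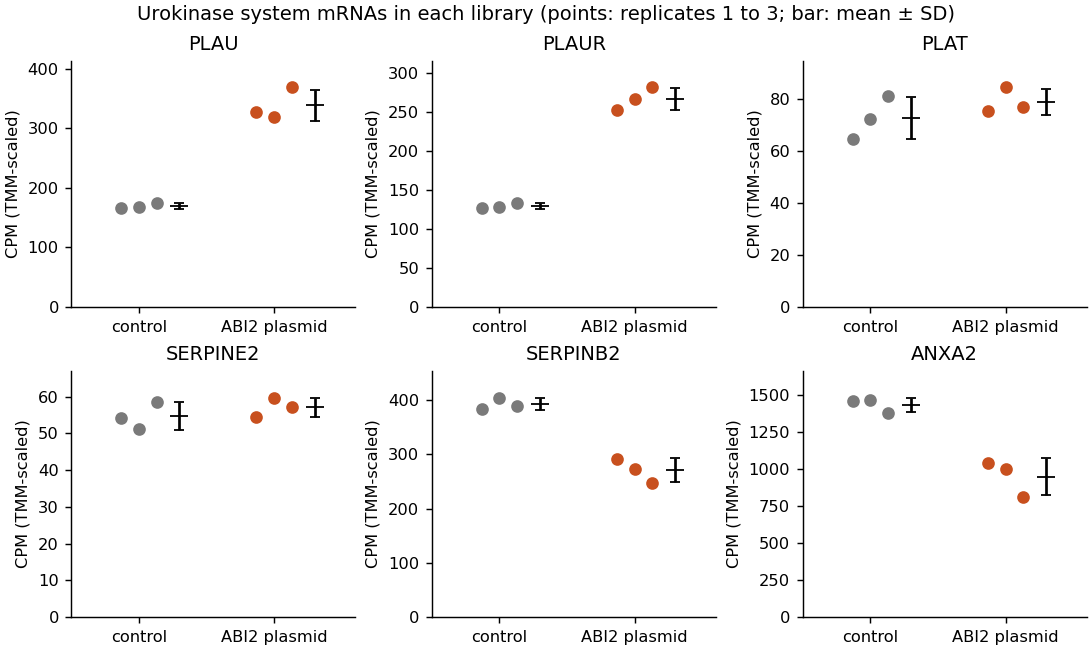
Level of each of the 6 genes, in CPM scaled by TMM, in the 3 control and the 3 ABI2 plasmid libraries (points, replicates 1 to 3 from left to right) with the mean and SD of each group (bars). PLAU and PLAUR sit higher in every ABI2 library than in any control library, SERPINB2 and ANXA2 lower, and the groups overlap for PLAT and SERPINE2.

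Urokinase is the activator that works mainly on the cell surface. PLAU (ENSG00000122861, chromosome 10, 73909177 to 73917497, plus strand, GRCh38) had 166, 168 and 175 CPM in control replicates 1 to 3 and 328, 319 and 369 CPM in ABI2 replicates 1 to 3. No ABI2 library came near the control range, and ABI2 replicate 3 was the highest. The means were 170 ± 4.79 CPM and 338 ± 26.6 CPM (SD, n = 3 each), a 1.99-fold difference. The log2 fold change came to 0.996 ± 0.07 (SE; edgeR adjusted p = 2.14e-05), and PLAU ranked 250 by fold among the 4680 genes that rose. The antisense gene C10orf55 lies across PLAU and had 297 counts in all libraries together, against 59710 for PLAU.

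PLAUR concentrates urokinase on the membrane and signals through neighbouring integrins. PLAUR (ENSG00000011422, chromosome 19, 43646095 to 43670547, minus strand) had 128, 128 and 134 CPM in the controls and 254, 267 and 282 CPM in the ABI2 libraries, replicates 1 to 3. The groups were well apart, and ABI2 replicate 3 was again the highest of the 6. The means were 130 ± 3.44 CPM and 267 ± 14.2 CPM (SD, n = 3 each), a 2.06-fold difference. The log2 fold change came to 1.04 ± 0.05 (SE; edgeR adjusted p = 1.45e-05), which placed PLAUR at rank 198 of the 4680 rises.

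The balance of receptor and ligand was compared within each library. The TPM ratio of PLAUR to PLAU was 1.35, 1.296 and 1.29 in the controls and 1.29, 1.36 and 1.24 in the ABI2 libraries. The groups overlapped, and the mean log2 ratio differed by -0.02 (exact permutation test, two-sided, p = 0.8). With 3 libraries against 3 this test cannot give a p below 0.1. Corrected for transcript GC, the ratio was 1.43 ± 0.04 in the controls and 1.19 ± 0.06 in the ABI2 libraries (SD, n = 3 each), without overlap and with a log2 difference of -0.26 (exact permutation p = 0.1).

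SERPINB2, plasminogen activator inhibitor type 2, is found largely inside cells and inhibits urokinase when secreted. SERPINB2 (ENSG00000197632, chromosome 18, 63871692 to 63903890, plus strand) had 384, 405 and 389 CPM in the controls and 291, 273 and 247 CPM in the ABI2 libraries. Every ABI2 library lay below every control library, with ABI2 replicate 3 the lowest. The means were 393 ± 11.0 CPM and 270 ± 22.2 CPM (SD, n = 3 each), 0.689 times the control level. The log2 fold change came to -0.54 ± 0.07 (SE; edgeR adjusted p = 2.73e-04), a fall that ranked 4366 by size among 5057 and that turned into a rise in all 4 fits with a GC correction (0.45 to 0.90). SERPINB10 overlaps SERPINB2 on the same strand and held 44 counts in all, against 79276.

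Annexin A2 binds membranes in the presence of calcium and was the most abundant of the 6 mRNAs. ANXA2 (ENSG00000182718, chromosome 15, 60347134 to 60402883, minus strand) had 1464, 1468 and 1384 CPM in the controls and 1041, 1003 and 809 CPM in the ABI2 libraries. The groups did not overlap, and ABI2 replicate 3 was the lowest. The means were 1439 ± 47.6 CPM and 951 ± 124 CPM (SD, n = 3 each), 0.661 times the control level. The log2 fold change came to -0.60 ± 0.09 (SE; edgeR adjusted p = 0.00104), rank 4231 of the 5057 falls. ANXA2 has processed pseudogenes nearly identical to it, and how reads shared with them were counted is not stated in any source used here, so its level is uncertain to that extent.

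PLAT is the activator that binds fibrin and dissolves clots. PLAT (ENSG00000104368, chromosome 8, 42175233 to 42207724, minus strand) had 64.6, 72.2 and 81.0 CPM in the controls and 75.1, 84.3 and 76.6 CPM in the ABI2 libraries. The groups overlapped, with the lowest value in control replicate 1 and the highest in ABI2 replicate 2. The means were 72.6 ± 8.19 CPM and 78.7 ± 4.93 CPM (SD, n = 3 each). The log2 fold change came to 0.12 ± 0.09 (SE; edgeR adjusted p = 0.299).

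SERPINE2, protease nexin 1, inhibits thrombin and both activators at the cell surface. SERPINE2 (ENSG00000135919, chromosome 2, 223975112 to 224039319, minus strand) had 54.3, 51.1 and 58.7 CPM in the controls and 54.6, 59.8 and 57.1 CPM in the ABI2 libraries. The groups overlapped over most of their range. The means were 54.7 ± 3.78 CPM and 57.2 ± 2.61 CPM (SD, n = 3 each), and the log2 fold change came to 0.06 ± 0.07 (SE; edgeR adjusted p = 0.458).

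The groups' CPM did not overlap for PLAU, PLAUR, SERPINB2 and ANXA2 (exact permutation p = 0.1 each, the smallest possible), and they overlapped for PLAT and SERPINE2. Over all tested genes 77.9% had groups that did not overlap. ABI2 replicate 3 was the library farthest from the controls for each of those 4 genes. It also had the highest count-weighted GC content, 54.1%. Without it, the log2 fold changes were 0.93 for PLAU, 1.01 for PLAUR, -0.47 for SERPINB2 and -0.49 for ANXA2, each with an edgeR adjusted p below the threshold.

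Per transcript length, the order of the 6 mRNAs shifted. In the control libraries the mean levels were 1865 TPM for ANXA2, 329.7 TPM for SERPINB2, 166 TPM for PLAUR, 127 TPM for PLAU, 78.5 TPM for PLAT and 44.8 TPM for SERPINE2. No neighbours in that order overlapped over the 3 libraries. With the ABI2 plasmid the order was ANXA2 at 1129 TPM, PLAUR at 302 TPM, PLAU at 233 TPM, SERPINB2 at 207 TPM, PLAT at 77.3 TPM and SERPINE2 at 45.2 TPM. SERPINB2, at 188 to 224 TPM, then overlapped PLAU, at 219.9 to 253 TPM, and the other neighbours did not overlap. Among all genes of the table ranked by mean TPM, SERPINB2 went from rank 381 to 782, PLAUR from 824 to 506 and PLAU from 1122 to 691. The place of SERPINB2 depended on the GC correction. The transcript GC trend of each library, relative to the mean of all libraries, was then removed. SERPINB2 was at 200.5 TPM in the controls, overlapping PLAUR at 197 TPM. With the plasmid it was at 339 TPM, above PLAUR at 254 TPM and PLAU at 214 TPM. This correction brings the GC trends of the groups together and leaves in any trend they share. The corrected order of genes within a group is therefore not free of GC content.

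**Figure D2:**
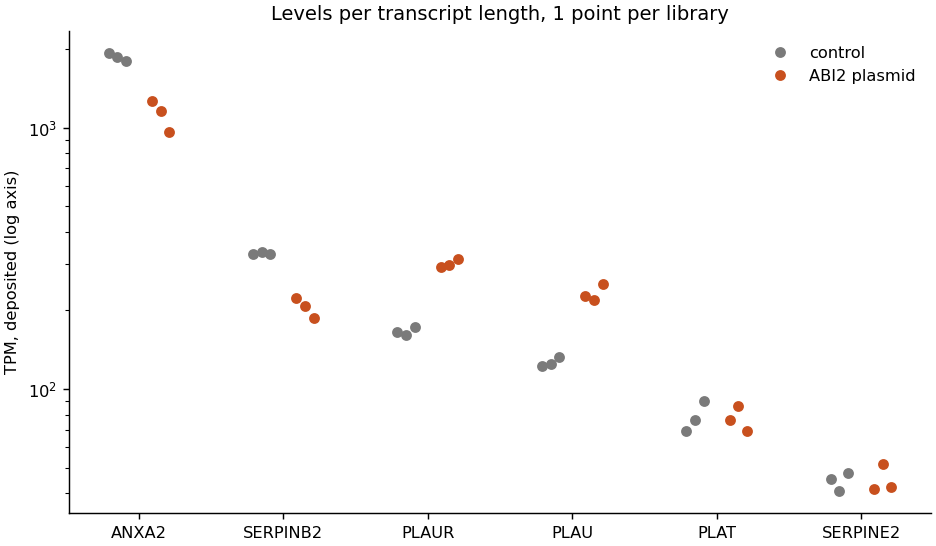
Deposited TPM of the 6 genes in each library on a log axis, with genes ordered by their control mean. SERPINB2 stands above PLAUR and PLAU in the controls and below PLAUR in the ABI2 libraries, where its range overlaps that of PLAU.

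Levels of inhibitors and activators were also set against each other within each library. The summed TPM of SERPINE2 and SERPINB2 over that of PLAU and PLAT was 1.94, 1.86 and 1.68 in the controls and 0.874, 0.850 and 0.713 in the ABI2 libraries. The ratio lay above 1 in each control library and below it in each ABI2 library, with a mean log2 difference of -1.17 (exact permutation p = 0.1). The sums cover these 4 genes and no other inhibitor. Both sides moved, the activator sum from 205 to 311 TPM and the inhibitor sum from 374 to 252 TPM. The direction did not hold under GC correction, an alternative for the ratios chosen after seeing the data. Corrected for transcript GC, the ratio was 1.14, 1.03 and 1.06 in the controls and 1.35, 1.41 and 1.33 in the ABI2 libraries, higher by 0.35 on the log2 scale (exact permutation p = 0.1). Corrected for coding-sequence GC, the groups overlapped (log2 difference -0.03, exact permutation p = 0.6).

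Within the activators and the docking proteins, the members also parted. The PLAU to PLAT ratio, also chosen after the values were seen, was 1.63 ± 0.15 in the controls and 3.06 ± 0.55 in the ABI2 libraries by TPM (SD, n = 3 each; log2 difference 0.90, exact permutation p = 0.1). S100A10, which forms a heterotetramer with annexin A2 and itself binds plasminogen, had 241 ± 6.33 CPM and 283 ± 23.6 CPM, a log2 fold change of 0.24 ± 0.07 (SE; edgeR adjusted p = 0.0150). The TPM ratio of ANXA2 to S100A10 was 5.58, 5.34 and 5.09 in the controls and 3.55, 3.25 and 2.35 in the ABI2 libraries. It was lower in each ABI2 library than in any control library, by -0.83 on the log2 scale (exact permutation p = 0.1), and by -0.35 and -1.74 with correction for transcript and coding-sequence GC. S100A10 was not higher under every scaling: its log2 fold change was -0.22 with correction for transcript GC and 1.62 with correction for coding-sequence GC.

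Fold changes over the whole table followed the GC content of the transcripts. Among 13314 tested genes with a known GC content, the decile with 39.1% to 41.7% GC had a median log2 fold change of -1.49, and 86.8% of it fell. SERPINB2, with 41.0% GC, belongs to this decile, and its fall of 0.54 on the log2 scale was smaller than that median. PLAUR, with 57.3% GC, belongs to a decile with a median of 0.55, in which 70.0% rose. PLAU, with 52.6% GC, belongs to one with a median of 0.21, in which 43.1% rose. PLAT, with 54.7% GC, lay below the median of 0.42 in its decile. ANXA2, with 49.7% GC, lay below its decile's median of -0.13, and 35.8% of that decile fell. The part of GC content in these differences and that of ABI2 cannot be told apart, because GC content of the counts goes with the groups.

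**Figure D3:**
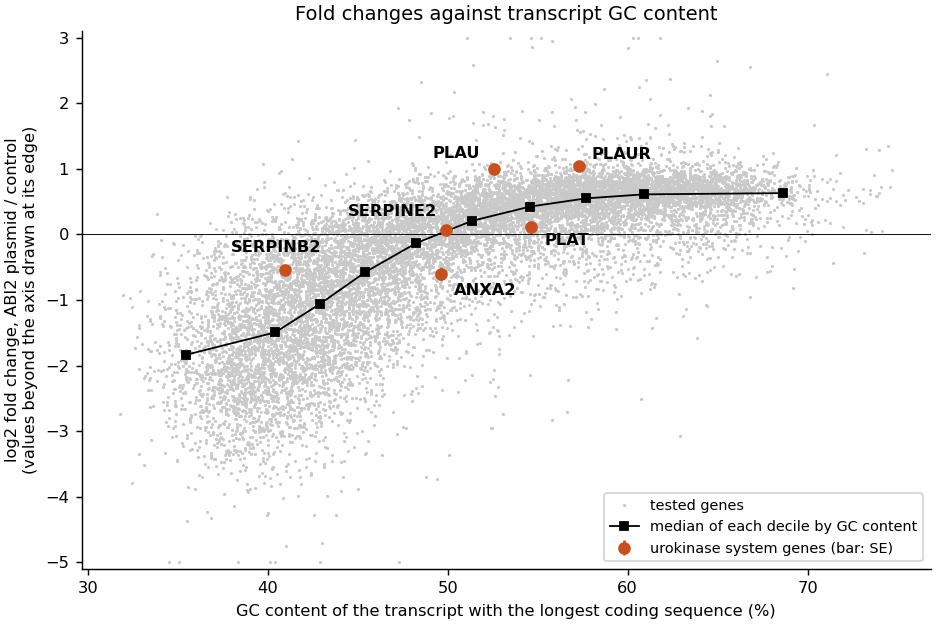
Log2 fold change (ABI2 plasmid over control) against GC content for the tested genes (grey), the median of each decile by GC content at the middle of its range (black) and the 6 genes with their SE (orange). PLAU and PLAUR lie above the median line, and SERPINB2 far above it although below 0. SERPINE2 is close to it at the GC content of the transcript used, and PLAT and ANXA2 lie below it.

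With the GC trend of each library, relative to the mean of all libraries, removed, 28.6% of genes were higher and 22.6% lower. Of the 6 genes 3 were higher, 2 lower and 1 was not called. PLAU and PLAUR stayed higher, with log2 fold changes of 0.74 ± 0.05 and 0.55 ± 0.04 (SE; edgeR adjusted p = 1.04e-04 and 8.99e-05). SERPINB2 changed direction, from -0.54 to 0.90 ± 0.04 (SE; edgeR adjusted p = 4.15e-05). ANXA2 stayed lower, at -0.58 ± 0.08 (SE; edgeR adjusted p = 0.00125), and PLAT was called lower, at -0.27 ± 0.09 (SE; edgeR adjusted p = 0.0408). SERPINE2 was at 0.06 ± 0.07 (SE; edgeR adjusted p = 0.522). In ranks by fold among the called genes, PLAU then stood at 1151 and PLAUR at 1709 of 3811 rises.

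The outcome for ANXA2 and SERPINE2 also turned on which sequence the GC content was taken from. With GC content of the coding sequence alone, an alternative chosen after seeing the data, ANXA2 was at -0.14 ± 0.06 (SE; edgeR adjusted p = 0.0778) and SERPINE2 at 0.60 ± 0.10 (SE; edgeR adjusted p = 0.00173). PLAU was at 0.86 ± 0.06, PLAUR at 0.66 ± 0.04, SERPINB2 at 0.45 ± 0.04 and PLAT at -0.27 ± 0.09 (SE), all past the threshold by edgeR. Such a correction also takes away any true change that goes with GC content. For SERPINE2 the transcript used had 1716 bp and 49.9% GC, the shortest of its 4 coding transcripts. The length implied by its counts and TPM averaged 2131 bp in the controls and 2019 bp in the ABI2 libraries. Its transcripts of 2161 and 2195 bp have 46.0% and 46.5% GC, in a decile with a median log2 fold change of -0.57. A fit with their GC content was not run. PLAU and PLAUR were higher in all 19 alternative fits, and the other 4 genes changed their direction or their call in at least 1.

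**Figure D4:**
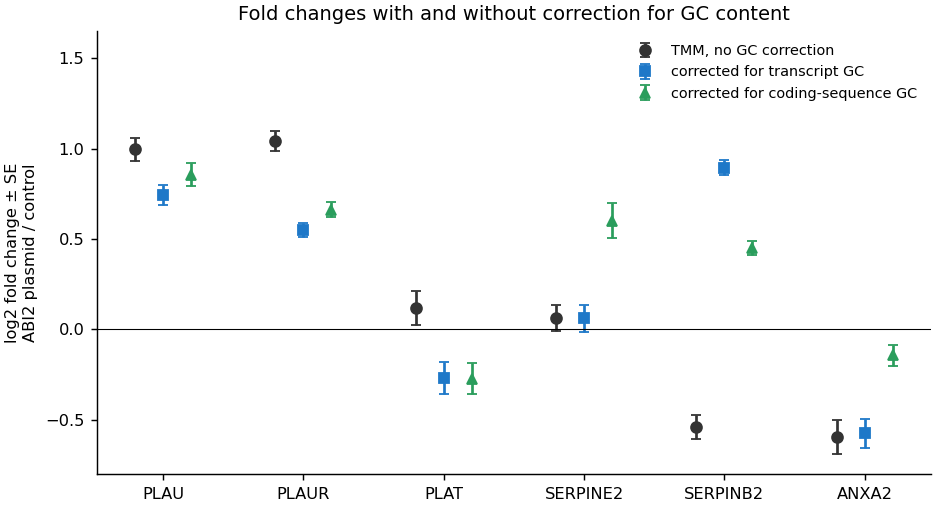
Log2 fold change (ABI2 plasmid over control) with its SE for the 6 genes without GC correction (circles), corrected for transcript GC (squares) and corrected for coding-sequence GC (triangles). PLAU and PLAUR are above 0 in all 3 fits, SERPINB2 crosses from below to above 0, and PLAT crosses from above to below 0.

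The promoters of the 4 genes that passed the test are shown because PLAU, PLAUR and SERPINB2 are textbook AP-1 and growth-factor responsive genes. Sequences are from RefSeq on GRCh38.p14 and cover the 250 bases before a transcript start, 5′ to 3′ on the gene's strand. Entries were looked up by symbol for 5 of the 6 genes, which gave 7 entries. PLAT was not looked up. Capitals mark matches to AP-1 TGANTCA, SP/KLF GGGCGG, the TATA box TATAAA or their reverse complements, and the ETS motif CCGGAAG was searched on both strands as well. The windows are chr10:73910882-73911131 on the plus strand for PLAU, chr19:43670170-43670419 on the minus strand for PLAUR, chr18:63887455-63887704 on the plus strand for SERPINB2 and chr15:60397987-60398236 on the minus strand for ANXA2.
PLAU: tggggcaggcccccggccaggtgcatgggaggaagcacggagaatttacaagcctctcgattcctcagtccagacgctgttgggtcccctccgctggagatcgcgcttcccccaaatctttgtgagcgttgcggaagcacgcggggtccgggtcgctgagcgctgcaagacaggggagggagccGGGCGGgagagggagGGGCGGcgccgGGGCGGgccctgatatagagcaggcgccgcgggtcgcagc
PLAUR: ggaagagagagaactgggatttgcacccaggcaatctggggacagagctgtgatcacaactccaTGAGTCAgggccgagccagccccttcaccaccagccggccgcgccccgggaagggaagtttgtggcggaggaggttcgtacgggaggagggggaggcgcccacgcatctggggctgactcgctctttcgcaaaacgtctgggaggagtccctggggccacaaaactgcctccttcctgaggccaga
SERPINB2: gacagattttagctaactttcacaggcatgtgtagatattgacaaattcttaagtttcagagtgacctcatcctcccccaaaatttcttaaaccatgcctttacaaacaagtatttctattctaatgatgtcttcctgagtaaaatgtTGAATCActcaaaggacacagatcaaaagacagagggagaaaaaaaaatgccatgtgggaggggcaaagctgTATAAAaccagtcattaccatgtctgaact
ANXA2: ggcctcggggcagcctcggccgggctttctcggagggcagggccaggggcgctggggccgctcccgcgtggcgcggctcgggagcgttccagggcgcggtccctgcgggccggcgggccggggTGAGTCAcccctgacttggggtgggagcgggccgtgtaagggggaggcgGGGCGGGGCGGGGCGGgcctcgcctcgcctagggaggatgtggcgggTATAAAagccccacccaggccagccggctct

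The PLAU window held 3 SP/KLF matches and the PLAUR window 1 AP-1 match. A window before another PLAU start (chr10:73910360-73910609, plus strand, 46.8% GC), not printed, held no match to any of these motifs. The SERPINB2 window held 1 AP-1 and 1 TATA box match, and the ANXA2 window 1 AP-1, 1 TATA box and 3 SP/KLF matches, of which 2 neighbouring pairs overlapped. No ETS match lay in the 4 printed windows. Windows before SERPINE2 starts, not printed, held 1 and 2 SP/KLF matches and no match to the other motifs. Of all 35116 RefSeq promoters of the same length, 6.57% held the AP-1 motif, 42.6% the SP/KLF motif, 10.7% the TATA box and 8.52% the ETS motif. AP-1 matches thus stood in a promoter of 1 gene that rose and of both genes that fell without GC correction. SERPINB2 of these rose with GC correction. Sequence outside the windows was not searched. The GC content of the windows was 68.8% for PLAU, 63.2% for PLAUR, 37.2% for SERPINB2 and 78.0% for ANXA2. A match is a description of letters and not a measured site.

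Deposited counts and TPM together give the transcript length that the authors' quantification implied. For PLAUR this length was 1368, 1350 and 1357 bp in the controls and 1378, 1413 and 1421 bp in the ABI2 libraries. The ABI2 libraries were all longer, by means of 1358 ± 9.04 bp against 1404 ± 23.0 bp (SD, n = 3 each; exact permutation p = 0.1), within the 1205 to 1610 bp spanned by its 4 coding transcripts in GENCODE. Over 13179 genes, 20.9% had implied lengths that did not overlap between groups. The other 5 genes overlapped. SERPINE2 had an implied length of 1824 bp in ABI2 replicate 2 and 2090 to 2144 bp in the other libraries.

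Genes whose levels ran most like those of PLAU over the 6 libraries were SLC3A2, RMND5B and SLC16A3, with Pearson r of log2 CPM of 0.99979, 0.99977 and 0.99970. For PLAUR they were FKBP4, MAPKAPK2 and TWF2, with r of 0.99996, 0.99986 and 0.99985. The 6 points fall into the 2 groups compared, and 1112 and 1344 of 8932 genes had an r above 0.99 with PLAU and PLAUR, so these values describe a shared difference between groups.

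Around the 6 genes, 9 lists of neighbouring genes held 63 tested genes, of which 27 were higher and 23 lower, or 42.9% and 36.5%, near the 35.1% and 38.0% of all genes. The counts that follow are small and are to be read against those shares, and those with GC correction against 28.6% and 22.6%. Plasminogen itself (PLG) had 7 counts over all 6 libraries, a gene named after its values were seen. Of 7 tested plasminogen-binding proteins, 5 rose and 1 fell, with a median log2 fold change of 0.63. The median GC content of this list was 56.0%, in a decile of which 59.8% rose, and with GC correction 6 rose and 1 fell, with a median of 0.20. Keratin 8 (KRT8), a plasminogen receptor on breast cancer cells, had 197, 197 and 223 CPM in the controls and 369, 393 and 403 CPM in the ABI2 libraries, a log2 fold change of 0.92 ± 0.06 (SE; edgeR adjusted p = 2.55e-05). All 3 ABI2 values were above the control values. Cytoplasmic actin (ACTB), which also binds plasminogen at the surface, went from 2723 ± 93.9 to 4274 ± 69.5 CPM (SD, n = 3 each), 0.65 ± 0.04 on the log2 scale (SE; edgeR adjusted p = 1.96e-05). Both stayed higher with correction for transcript GC, at 0.36 and 0.20.

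Of 12 tested partners and endocytic receptors of PLAUR, 5 rose, 6 fell and the median was -0.30, while with GC correction 2 rose and 3 fell. The vitronectin receptor subunit ITGAV had 59.2, 55.2 and 53.4 CPM in the controls and 7.66, 6.98 and 4.92 CPM in the ABI2 libraries. That fall was far outside the spread, with a log2 fold change of -3.10 ± 0.17 (SE; edgeR adjusted p = 1.50e-05). Its transcript has 38.3% GC, and the GC-corrected value was -1.41. The fibronectin receptor subunit ITGA5 went from 168 ± 5.78 to 296 ± 16.5 CPM (SD, n = 3 each), 0.82 ± 0.06 on the log2 scale (SE; edgeR adjusted p = 2.41e-05), and 0.29 after GC correction.

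Of 5 tested other inhibitors, 1 rose, 1 fell and the median was 0.16, while with GC correction 3 rose and none fell. SPINT2, a Kunitz inhibitor of membrane serine proteases, went from 135 ± 3.12 to 231 ± 10.4 CPM (SD, n = 3 each), 0.77 ± 0.05 on the log2 scale (SE; edgeR adjusted p = 2.16e-05), and 0.30 after GC correction. SERPINI1, neuroserpin, an inhibitor of PLAT, had 2.97, 3.17 and 2.23 CPM in the controls and 1.83, 1.26 and 1.37 CPM in the ABI2 libraries. Its groups did not overlap, with a log2 fold change of -0.91 ± 0.22 (SE; edgeR adjusted p = 0.00701), and with GC correction it was higher, at 0.61. SERPINA5 had no count, which allows up to 0.0780 CPM in the shallowest library (3 counts, counting error only), a limit that also holds for the other genes at 0.

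Of 5 tested substrates, 1 rose, 3 fell and the median was -0.31, while with GC correction 2 rose and 1 fell, with a median of 0.08. The growth factor PDGFD was low, with 49, 22 and 40 counts in the controls and 4, 6 and 4 counts in the ABI2 libraries (log2 fold change -2.86 ± 0.43, SE; edgeR adjusted p = 7.58e-04). It was not called after correction for transcript GC and was lower with coding-sequence GC (-1.98; edgeR adjusted p = 0.00942). TGFB1, the latent growth factor that plasmin can release, went from 144 ± 4.99 to 230.3 ± 5.66 CPM (SD, n = 3 each), 0.67 ± 0.05 on the log2 scale (SE; edgeR adjusted p = 2.60e-05). With correction for transcript GC, TGFB1 was at 0.08 and not called, and with coding-sequence GC it was higher (0.15; edgeR adjusted p = 0.0188). HGF had no count in any library. Of 4 tested related proteases, 1 rose (factor XII, F12, from 9.62 ± 0.60 to 16.2 ± 0.37 CPM, SD, n = 3 each; edgeR adjusted p = 2.51e-04) and 1 fell (plasma kallikrein, KLKB1, with 25, 17 and 11 counts in the controls and 1, 2 and 0 in the ABI2 libraries; edgeR adjusted p = 0.00205). With GC correction F12 was not called and KLKB1 stayed lower. KLK6 and TMPRSS3 had no count in any library.

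Among 9 other tested annexins, 3 rose and 6 fell, with a median of -0.19. With GC correction 5 rose and 2 fell. ANXA1, a calcium-dependent membrane binder with anti-inflammatory roles, had 563, 656 and 496 CPM in the controls and 172, 160.1 and 152 CPM in the ABI2 libraries. Its groups were far apart, with a log2 fold change of -1.82 ± 0.11 (SE; edgeR adjusted p = 1.84e-05), and its GC-corrected value was -0.20 at 39.3% transcript GC. ANXA11 went from 174 ± 9.66 to 281 ± 11.0 CPM (SD, n = 3 each), 0.69 ± 0.06 on the log2 scale (SE; edgeR adjusted p = 4.58e-05), and 0.46 after GC correction. The fall of ANXA2 after correction for transcript GC, -0.58, was larger than that of ANXA1, and its value after correction for coding-sequence GC, -0.14, was smaller than the -0.56 of ANXA1.

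**Figure D5:**
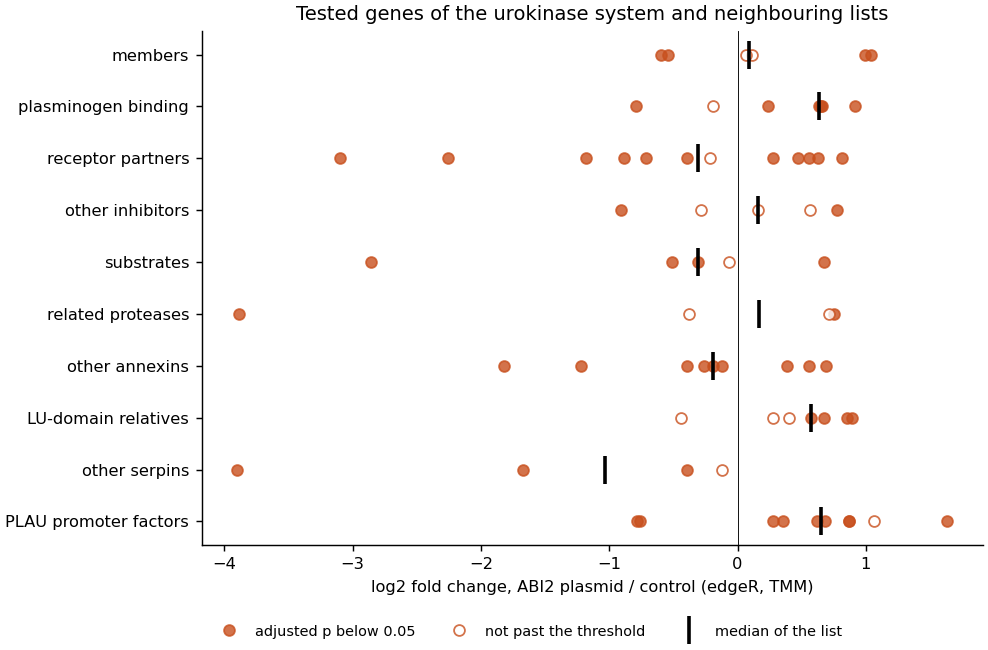
Log2 fold change (ABI2 plasmid over control, edgeR with TMM) of each tested gene in the urokinase system and in the 9 neighbouring lists, filled where the adjusted p is below 0.05, with the median of each list as a black bar. Plasminogen-binding proteins have a median of 0.63 and receptor partners one of -0.30, and most lists hold genes on both sides of 0.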

How the data were processed

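The authors deposited 1 table with read counts, TPM and FPKM for each gene and library, per the file headers. The deposited FPKM values were not used. Per the submitters' processing notes, the tools were StringTie 1.3.3b, HISAT2 2.1.0, Trimmomatic and FastQC 0.11.2, and the build was GRCh38. The sources used here do not give the counting program, its strand setting or the annotation, so reads of overlapping and antisense genes cannot be told apart. The table had 20260 complete rows. 1 incomplete row was left out. Library totals were 38.5 to 40.3 in units of 1e6. Replicates of a group differed by more than counting noise (chi-square per degree of freedom 20.3 to 46.2) and none was a duplicate.

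Groups were compared on the deposited counts with the robust, two-sided quasi-likelihood F test of edgeR 4.0.16 under R 4.3.3 (TMM scaling, filterByExpr minimum count 10, Benjamini-Hochberg over all genes, threshold 0.05). SE is the absolute log2 fold change over the root of F. Deposited TPM values served for levels and ratios. The GC correction fitted a natural spline with 5 degrees of freedom of transcript GC content to each library and used it as an offset. The values fitted were each gene's deviations in log2 CPM from its mean over all libraries. GC content was that of the GENCODE 29 transcript of longest coding sequence. Implied lengths are counts over TPM, scaled on 519 genes with a single transcript. The edgeR fits with and without correction for transcript GC were also run on simulated counts, with changed genes drawn without regard to GC content. That setting cannot show how the correction acts where true changes go with GC content. Alternatives included DESeq2 1.42.0, limma 3.58.1 and leaving out each library.

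The genes and lists were chosen with earlier results of these data known. All 6 genes are named, from each list the 2 with the smallest p and those with no count, and the 3 genes most correlated with PLAU and with PLAUR among those of at least 10 CPM. 1 gene that the rule takes is not reported here. Further genes are said to have been named after their values were seen.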

Additional observations from a re-analysis of the deposited data

How the results depend on the processing

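PLAU and PLAUR were higher and past the threshold in all 19 alternative fits. Their smallest log2 fold changes, 0.64 and 0.40, came with correction for GC and length. Leaving out 1 library gave 0.93 to 1.04 for PLAU, 1.01 to 1.09 for PLAUR, 0.05 to 0.20 for PLAT, 0.03 to 0.12 for SERPINE2, -0.59 to -0.47 for SERPINB2 and -0.66 to -0.49 for ANXA2 (log2), with no change of call. SERPINB2 was at 0.90 with GC correction, 0.69 with GC and length, 0.45 with coding-sequence GC and 0.90 with replicate block and GC. PLAT was at -0.27, -0.32, -0.27 and -0.27 in the same order, and at -0.019 by limma on log2(TPM + 1) and -0.019 on log2(TPM + 0.1). SERPINE2 was at -0.033 without TMM, -0.11 with GC and length and 0.60 with coding-sequence GC, and ANXA2 at -0.14 with coding-sequence GC. S100A10 was at -0.22, -0.40 and -0.22 with GC, GC and length, and block with GC, and SERPINB1 at 0.38, 0.26, 0.72 and 0.38 with GC, GC and length, coding-sequence GC, and block with GC. SERPINI1 was at 0.61, 0.37, 0.85 and 0.60 in that order. Apart from the corrections' own removal of the GC trend, the cause was not tested.

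Genes lower numbered 5057, and 3008, 2936, 3118 and 2743 with GC, GC and length, coding-sequence GC, and block with GC. List genes lower numbered 23, and 13, 12 and 11 with the same corrections apart from coding-sequence GC. The PLAUR to PLAU ratio, at -0.02 with overlapping groups, was at 0.049 by CPM and between -0.053 and 0.012 without single libraries, with 0.000162 without control replicate 1 and 0.0122 without ABI2 replicate 3. Over the other named genes and their alternatives, 452 values kept direction and call, 28 lost the call (22 of them under GC corrections) and the 11 given above for S100A10, SERPINB1 and SERPINI1 reversed. Marker genes and genes named after their values were seen are not among these. With correction for transcript and coding-sequence GC, the PLAUR to PLAU ratio was at -0.26 and -0.26, inhibitors to activators at 0.35 and -0.028, ANXA2 to S100A10 at -0.35 and -1.74, and PLAU to PLAT at 1.15 with coding-sequence GC. By limma on log2(TPM + 0.1) the median of all genes shifted by -0.12.

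No label says whether the replicate numbers mark pairs. Deviations of same-numbered libraries from their group means correlated at 0.022, 0.018 and 0.061, and those of differently numbered libraries at -0.048 to 0.025. Control replicate 2 correlated best with ABI2 replicate 1, at 0.025. Values this small do not settle whether the numbers mark pairs. A replicate block gave 4548 higher and 4929 lower genes. Counts limit precision for genes under about 50 counts, such as PDGFD, KLKB1 and SERPINB4.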

Other observations

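SERPINB2 belongs to the clade B serpins, which act mostly inside cells. Of 6 tested clade B and E serpins in the lists, the 2 counted among the inhibitors included (SERPINB6 at 0.16 and SERPINB8 at -0.28, neither called), none rose and 3 fell, with a median log2 fold change of -0.34. Over all genes 35.1% rose and 38.0% fell, and with GC correction 2 of the 6 rose and 2 fell. SERPINB1, an inhibitor of neutrophil proteases, had 110.2, 116 and 106 CPM in the controls and 92.8, 79.2 and 80.6 CPM in the ABI2 libraries, and was lower without GC correction (-0.39 ± 0.08, SE; edgeR adjusted p = 0.00257) and higher with it (0.38). SERPINB4, a near-identical copy of SERPINB3 so that reads may be shared, had 32, 44 and 25 counts against 2, 4 and 0 (edgeR adjusted p = 0.00102), and was lower with and without GC correction. SERPINB5 and SERPINB13 had no count in any library.

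Of 10 transcription factors known to act on the PLAU promoter, 7 rose, 2 fell and the median was 0.65, while with GC correction 5 rose and 2 fell (all genes: 35.1% and 38.0% without, 28.6% and 22.6% with correction). The median GC content of these factors was 53.2%, in a decile of which 59.8% rose with a median of 0.42. FOSL1, an AP-1 subunit abundant in this line, had 320.4, 346 and 366 CPM in the controls and 643, 662 and 579.6 CPM in the ABI2 libraries. Its log2 fold change was 0.87 ± 0.07 (SE; edgeR adjusted p = 4.18e-05), and 0.31 with GC correction. JUN went from 241 ± 4.72 to 370.1 ± 18.4 CPM (SD, n = 3 each), 0.62 ± 0.05 (SE; edgeR adjusted p = 4.10e-05), and 0.15 with correction for transcript GC. With coding-sequence GC, JUN was at 0.06 and not called (edgeR adjusted p = 0.184). Without GC correction the 2 that fell, named after their values were seen, were ETS1 and SP1, with log2 fold changes of -0.78 and -0.76. SP1 was called lower with correction for transcript GC (-1.05) and for coding-sequence GC (-0.87). ETS1 was not called with the former (0.43) and was lower with the latter (-0.65). The other factor lower with correction for transcript GC, also named after its values were seen, was the AP-1 subunit JUND. It was called higher without correction (0.28) and lower with correction for transcript GC (-0.30) and coding-sequence GC (-0.22). Of 7 tested relatives of PLAUR that share its LU domain fold, 4 rose and none fell, with a median of 0.58. The median GC content of that list was 56.3%, in a decile of which 70.0% rose with a median of 0.55, and with GC correction 3 rose and none fell, with a median of 0.27. LY6E, a surface protein anchored like PLAUR, went from 10.6 ± 1.31 to 19.1 ± 3.12 CPM (SD, n = 3 each; edgeR adjusted p = 0.00179) and LYPD1 from 5.07 ± 0.995 to 8.09 ± 0.60 CPM (SD, n = 3 each; edgeR adjusted p = 0.00687). Neither was called with correction for transcript GC, and with coding-sequence GC LYPD1 was higher (0.47; edgeR adjusted p = 0.0424) and LY6E was not called. LYPD2, LY6D and TEX101 had no count in any library.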
